A study of Mus musculus with 48 samples.

Results

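Enteroendocrine cells (EECs) are the hormone-secreting cells of the gut epithelium and arise from the same crypt progenitors as goblet, Paneth and tuft cells. 9 genes of the Notch pathway that steer this secretory choice were followed through 48 RNA-seq libraries of sorted mouse EECs. They were chosen by name, out of a table of 53465 genes and with earlier results of these data known: the ligands Dll1, Dll4, Jag1 and Jag2, the receptors Notch1 and Notch2, and the transcription factors Hes1, Hes6 and Atoh1. All 9 passed the filter on low counts, which left 15126 genes for testing.

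The libraries came from NeuroD1-cre/EYFP male C57BL6 mice, in which cells that express or once expressed Neurod1 carry the fluorescent reporter, so the sorted population follows the lineage and not the current Neurod1 level. Mice of about 20 weeks, all of them lean, had vertical sleeve gastrectomy (VSG), in which about 70% of the stomach was removed, or a sham operation, after which they were fed ad libitum or were fed to match the weight of the VSG mice. All groups received liquid diet around surgery and chow later, only the VSG mice received vitamin B12, and every mouse was fasted overnight and given 3 g/kg glucose by gavage before tissue was taken 6 weeks after surgery. Reporter-positive cells that were negative for the leukocyte antigen CD45 were collected from the top 5 cm of the small intestine (duodenum), its bottom 15 cm (ileum) and the colon with rectum. From 17 mice each region had 5 libraries of sham mice fed ad libitum, 5 of weight-matched sham mice and 6 of VSG mice, and 15 mice gave all 3 regions. The reporter marks the whole Neurod1 lineage, so the mixture of EEC subtypes can differ between regions.

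Total counts ran from 4648651 to 17182463 per library (median 6713018). Levels are given as counts per 1000000 (CPM) after scaling by the trimmed mean of M-values, and the log2 fold changes come from an edgeR fit over all libraries. In that fit a gene was called at a Benjamini-Hochberg adjusted p under 0.05. The 7 EEC markers (Neurod1, Chga, Chgb, Scg2, Scg3, Pcsk1 and Tph1) summed to medians of 57124 CPM in duodenum, 44087 in ileum and 49114 in colon, and none was at 0 in any library. Chga and Chgb made up most of each sum, and the single markers differed in course. From duodenum to colon, medians fell for Scg2 (1102, 374 and 32.7 CPM), Pcsk1 (1010, 768 and 114), Scg3 (368, 246 and 97.0) and Neurod1 (669, 385 and 244). Chga (17618, 17256 and 19905 CPM) and Tph1 (2412, 1106 and 2779) were highest in the colon, and Chgb was at 35137, 24086 and 26233 CPM. RNA of other epithelial cells was also present. Summed goblet markers had medians of 3715, 4033 and 9333 CPM, crypt stem markers 1043, 1941 and 93.7 CPM, enterocyte markers 5665, 7027 and 396 CPM, colonocyte markers 50.2, 165 and 1801 CPM, Paneth markers 273, 2532 and 17.3 CPM, and proliferation genes 264, 364 and 107 CPM, from duodenum to colon. Summed tuft, endothelial, stromal, immune and enteric neuron and glia markers each had medians of at most 41.6 CPM in a region. The endothelial genes Cdh5 and Emcn, markers of vessels that also use Dll4 and Notch1, had a median of 0 in every region, and 38 and 42 of the 48 libraries held no count of them. Pecam1, the remaining endothelial gene with more than a few CPM, had medians of 14.9, 20.7 and 20.8 CPM. In such bulk samples fewer cells of a type and less RNA per cell cannot be told apart. The duodenum library of sham weight-matched mouse 27 stood apart, with 12016 CPM of EEC markers (38416 to 75394 in the other 15) and 36938 CPM of enterocyte markers (4384 to 12290 in the others). The ileum and colon libraries of sham ad libitum mouse 12 carry tissue labels and sample codes that are crossed; the tissue label was used. With it, every ileum library had at least 1130 CPM of Paneth and at most 399.7 CPM of colonocyte markers, and every colon library at most 141 CPM of Paneth and at least 683 CPM of colonocyte markers.

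Notch signalling passes between touching cells. A Delta or Jagged ligand on a cell binds a Notch receptor on its neighbour, the receptor is cleaved, and its intracellular part joins the DNA-binding protein RBPJ to switch on genes such as Hes1. Hes1 represses Atoh1, the master factor of the secretory lineage, so that cells receiving the signal become absorptive, while cells that escape it express Atoh1, display Delta ligands and give rise to goblet, Paneth, tuft and enteroendocrine cells. Hes6 is a relative of Hes1 that antagonises it and is found in differentiating secretory and neural cells. In EECs, Neurog3 acts downstream of Atoh1 and induces Neurod1.

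The promoters of 4 members are shown because these genes took 3 courses along the gut, as described below: Dll1 and Dll4 were lower in the colon, Atoh1 was higher there, and Hes6 was not called between any regions. RefSeq (GRCm38.p6) start sites were used and the 250 bases before each are printed on the strand of the gene. The windows are chr17:15376933-15377182 (minus strand) for Dll1, chr2:119325534-119325783 (plus) for Dll4, chr1:91414039-91414288 (minus) for Hes6 and chr6:64728875-64729124 (plus) for Atoh1, all of them outside the GENCODE gene bodies. Capitals mark a match on either strand to the RBPJ site GTGGGAA, to the E-box CAGCTG that Atoh1-like factors can bind, or to the N-box CACNAG that Hes factors can bind.
Dll1: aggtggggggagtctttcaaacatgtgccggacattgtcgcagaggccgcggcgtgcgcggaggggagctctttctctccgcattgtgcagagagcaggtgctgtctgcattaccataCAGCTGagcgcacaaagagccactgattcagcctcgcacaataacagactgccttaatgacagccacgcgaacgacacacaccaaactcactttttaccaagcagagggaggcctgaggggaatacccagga
Dll4: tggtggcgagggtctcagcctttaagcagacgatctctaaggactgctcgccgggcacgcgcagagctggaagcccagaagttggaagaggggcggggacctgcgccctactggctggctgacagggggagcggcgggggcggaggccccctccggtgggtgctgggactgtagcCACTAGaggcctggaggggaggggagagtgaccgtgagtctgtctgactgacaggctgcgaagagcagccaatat
Hes6: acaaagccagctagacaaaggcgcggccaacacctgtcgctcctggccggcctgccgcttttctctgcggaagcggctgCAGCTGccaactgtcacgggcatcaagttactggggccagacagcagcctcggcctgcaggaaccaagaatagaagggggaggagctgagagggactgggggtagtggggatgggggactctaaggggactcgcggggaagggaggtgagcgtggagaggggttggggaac
Atoh1: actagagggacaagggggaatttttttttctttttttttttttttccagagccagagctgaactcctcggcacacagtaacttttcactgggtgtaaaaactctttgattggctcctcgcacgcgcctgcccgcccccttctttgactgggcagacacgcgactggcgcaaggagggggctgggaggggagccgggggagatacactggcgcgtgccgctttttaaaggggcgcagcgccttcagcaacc
In these windows Dll1 and Hes6 each held a CAGCTG, 132 and 171 bases before the start. Dll4 held a CACNAG 75 bases before it. None of the 4 printed windows held GTGGGAA, and that of Atoh1 held no match to any of the 3. Dll1 and Hes6 each have a further RefSeq start within the gene, whose window is not printed. That of Dll1 held no match, and that of Hes6 held a CAGCTG 150 and a CACNAG 237 bases before its start. Among 32851 promoter windows of the same length, 5.42% held GTGGGAA, 13.001% CAGCTG and 36.7% CACNAG. A match is a stretch of letters and does not show binding.

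Region came first among the comparisons. 6 of the 9 members were called between ileum and duodenum, where 33.8% of all tested genes were, 6 between colon and duodenum, where 55.0% were, and 6 between colon and ileum, where 49.2% were. The ligands Dll1, Dll4 and Jag2 were lower in the colon than in both parts of the small intestine, while Hes1 and Atoh1 were higher in the colon than in both. Notch2 was highest in the ileum and Notch1 lowest in the duodenum, and neither Jag1 nor Hes6 was called in any of the 3 contrasts. The median log2 fold change over all tested genes was 0.00 for ileum against duodenum, -0.01 for colon against duodenum and -0.01 for colon against ileum, against 0.18, 0.09 and -0.04 over the 9 members.

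**Figure D1:**
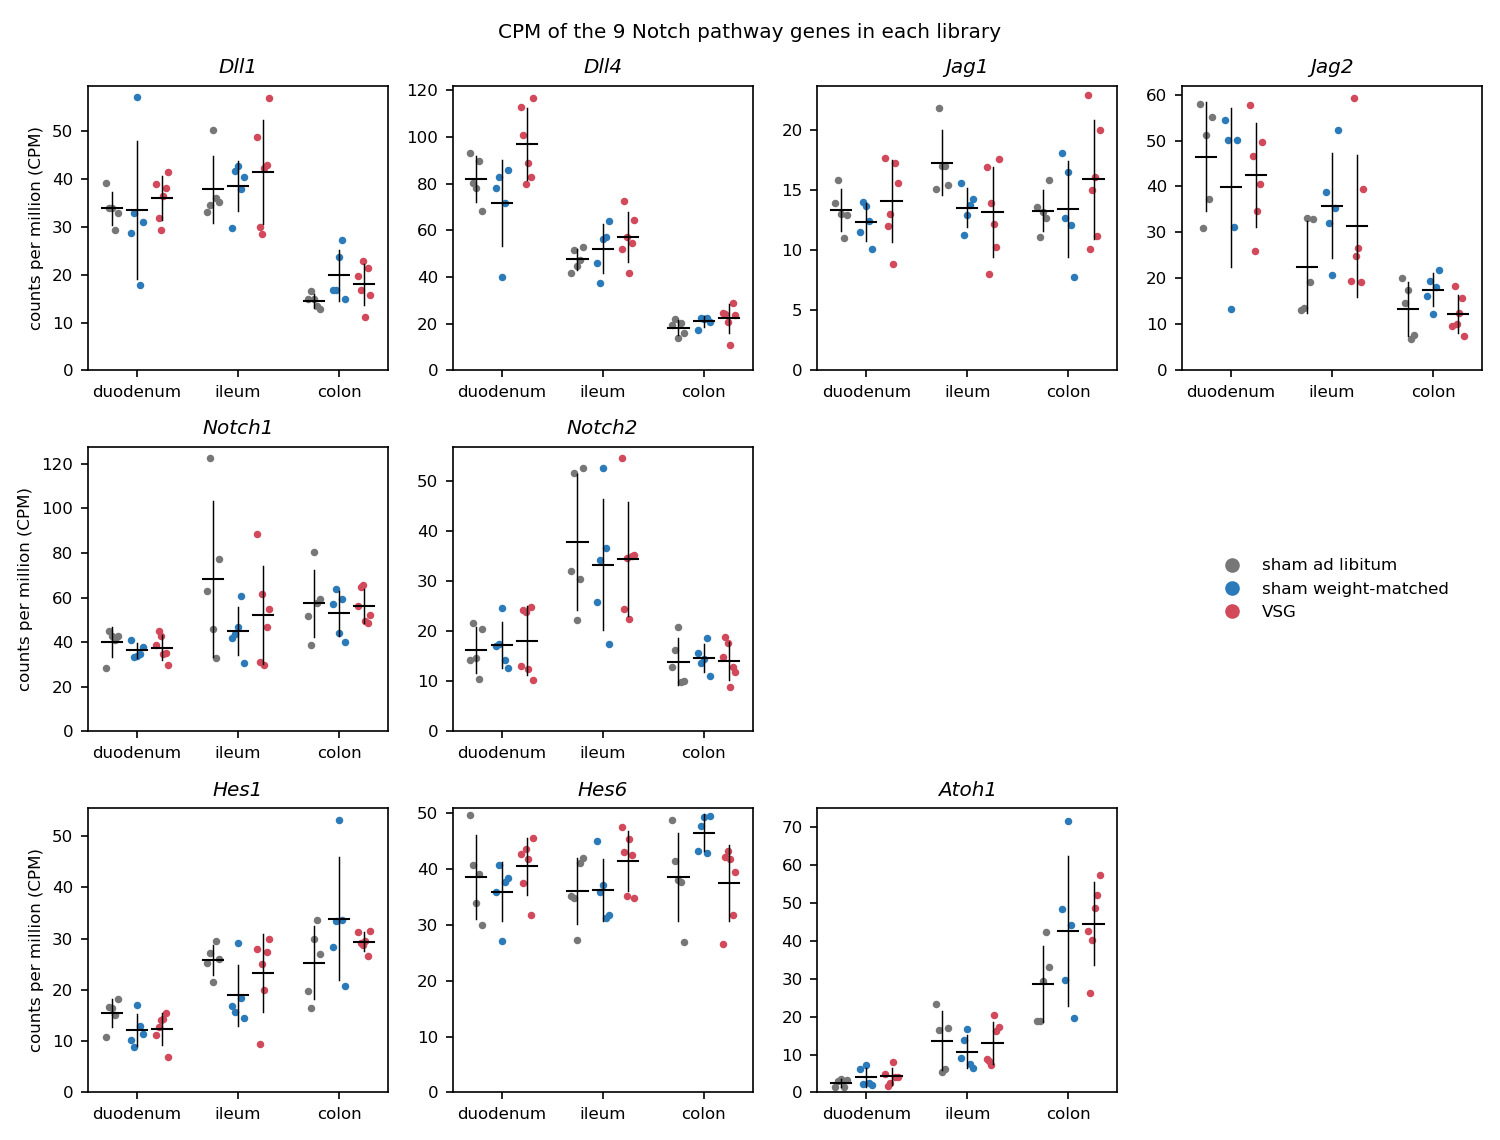
CPM (linear axis from 0) of the 9 genes in each library by region, with ligands in the top row, receptors in the middle and transcription factors at the bottom; points are libraries coloured by surgery, horizontal lines group means and vertical lines 1 SD. Dll4 steps down from duodenum to colon and Atoh1 steps up in every surgery group, while the 3 surgery groups overlap within each region.

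Dll4 (ENSMUSG00000027314, chr2:119325784-119335962, plus strand), a Delta ligand that crypt secretory progenitors present to their neighbours, had the steepest fall among the ligands. Its level was 40.0 to 117 CPM (lowest and highest of 16 libraries, median 83.0) in duodenum, 37.3 to 72.7 CPM (median 52.4) in ileum and 10.9 to 29.03 CPM (median 21.4) in colon. Every colon library lay below every library of the small intestine, and the duodenum and ileum overlapped. The log2 fold change was -0.67 ± 0.10 (SE) for ileum against duodenum (edgeR, adjusted p = 4.32e-07), -2.02 ± 0.10 for colon against duodenum (adjusted p = 3.42e-22) and -1.35 ± 0.10 for colon against ileum (adjusted p = 1.02e-15). Dll4 was lower in the colon in 15 of 15 mice with both regions when set against the duodenum and in 16 of 16 against the ileum, and lower in the ileum than in the duodenum in 14 of 15. The exception in the last was mouse 27, whose duodenum library is the one described above. An antisense transcript, Gm14207, shares 214 exonic bases with Dll4, and the strand setting of the counting is not stated.

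Dll1 (ENSMUSG00000014773, chr17:15367354-15376872, minus strand), the Delta ligand most tied to secretory progenitors of the crypt, was low in the colon and was not called between the parts of the small intestine. Its CPM ran from 17.9 to 57.1 (median 33.3) in duodenum, 28.5 to 56.8 (median 39.2) in ileum and 11.1 to 27.2 (median 16.7) in colon. Colon and ileum libraries did not overlap, whereas those of colon and duodenum did. The log2 fold change was -0.99 ± 0.11 for colon against duodenum (edgeR, adjusted p = 2.49e-10) and -1.18 ± 0.12 for colon against ileum (adjusted p = 3.13e-12), and the colon was lower in 14 of 15 and 16 of 16 mice. For ileum against duodenum it was 0.18 ± 0.11 (adjusted p = 0.209), which became 0.28 ± 0.10 (adjusted p = 0.0271) when the duodenum library of mouse 27, the highest of its region, was left out. A930024N18Rik on the opposite strand shares 867 exonic bases with Dll1.

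Jag2 (ENSMUSG00000002799, chr12:112907819-112929776, minus strand), a Jagged ligand, followed the course of Dll4 with a wider spread. Its CPM ran from 13.4 to 58.0 (median 48.1) in duodenum, 13.1 to 59.2 (median 29.4) in ileum and 6.91 to 21.8 (median 15.2) in colon. The 3 regions overlapped. The log2 fold change was -0.55 ± 0.18 for ileum against duodenum (edgeR, adjusted p = 0.0176), -1.58 ± 0.19 for colon against duodenum (adjusted p = 1.26e-09) and -1.03 ± 0.19 for colon against ileum (adjusted p = 1.35e-05). Jag2 was lower in colon than in duodenum in 15 of 15 mice, lower in colon than in ileum in 14 of 16, and lower in the ileum than in the duodenum in 11 of 15. The call between ileum and duodenum was lost without sham ad libitum mouse 12 (-0.47, adjusted p = 0.0545) and without VSG mouse 11 (-0.48, adjusted p = 0.0515).

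Jag1 (ENSMUSG00000027276, chr2:137081456-137116644, minus strand), a Jagged ligand of many tissues, did not separate the regions. It was at 8.87 to 17.7 CPM in duodenum, 8.07 to 21.9 in ileum and 7.82 to 22.9 in colon, with medians of 13.03, 14.7 and 13.4. The 95% interval of the log2 fold change was -0.11 to 0.37 for ileum against duodenum, -0.15 to 0.33 for colon against duodenum and -0.28 to 0.20 for colon against ileum (edgeR, lowest adjusted p = 0.429). Differences the size of those of Dll1, Dll4 or Jag2 in the colon lie outside these intervals.

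Notch2 (ENSMUSG00000027878, chr3:98013527-98150361, plus strand), which acts with Notch1 to keep crypt progenitors undifferentiated, peaked in the ileum. Its CPM ran from 10.2 to 24.9 (median 15.8) in duodenum, 17.4 to 54.5 (median 34.5) in ileum and 8.81 to 20.8 (median 14.0) in colon. It was higher in the ileum than in the duodenum in 15 of 15 mice and higher in the ileum than in the colon in 16 of 16, although the ranges overlapped. The log2 fold change was 1.03 ± 0.16 for ileum against duodenum (edgeR, adjusted p = 7.88e-07), -1.30 ± 0.16 for colon against ileum (adjusted p = 2.00e-09) and -0.27 ± 0.16 for colon against duodenum (adjusted p = 0.156), the last of which was called without sham ad libitum mouse 19 (-0.37, adjusted p = 0.0443). The predicted gene Gm42820 on the same strand shares 541 exonic bases with it.

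Notch1 (ENSMUSG00000026923, chr2:26457903-26516663, minus strand), the other receptor of crypt progenitors, was lowest in the duodenum. Its CPM ran from 28.5 to 45.1 (median 38.3) in duodenum, 29.8 to 123 (median 46.8) in ileum and 38.92 to 80.4 (median 56.7) in colon. The ileum libraries were the most scattered, with an SD of 24.7 CPM against 5.23 in the duodenum and 10.52 in the colon. The log2 fold change was 0.52 ± 0.13 for ileum against duodenum (edgeR, adjusted p = 0.00205), 0.55 ± 0.13 for colon against duodenum (adjusted p = 0.000492) and 0.03 ± 0.13 for colon against ileum (95% interval -0.24 to 0.30). Opposite-strand transcripts 0610009E02Rik and Gm13568 share 1068 and 414 exonic bases with Notch1.

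Atoh1 (ENSMUSG00000073043, chr6:64729125-64731245, plus strand), the factor that commits progenitors to a secretory fate, had the largest ratio of highest to lowest level among the 9. It was at 1.34 to 8.04 CPM (median 3.18) in duodenum, 5.50 to 23.4 CPM (median 11.5) in ileum and 18.9 to 71.6 CPM (median 41.3) in colon, and its counts per library ran from 9 to 58, 23 to 166 and 146 to 393. Every colon library lay above every duodenum library, and the ileum overlapped both. The log2 fold change was 1.81 ± 0.24 for ileum against duodenum (edgeR, adjusted p = 4.70e-08), 3.42 ± 0.24 for colon against duodenum (adjusted p = 1.74e-16) and 1.61 ± 0.22 for colon against ileum (adjusted p = 3.98e-08). The duodenum was the lower in 15 of 15 mice against either other region, and the colon was higher than the ileum in 15 of 16.

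Hes1 (ENSMUSG00000022528, chr16:30064384-30067796, plus strand), the repressor switched on by Notch, rose in the same direction as Atoh1, the gene it is known to repress. Its CPM ran from 6.85 to 18.3 (median 13.5) in duodenum, 9.49 to 30.01 (median 25.1) in ileum and 16.4 to 53.2 (median 29.3) in colon. Neighbouring regions overlapped, and the log2 fold change was 0.76 ± 0.13 for ileum against duodenum (edgeR, adjusted p = 1.11e-05), 1.14 ± 0.13 for colon against duodenum (adjusted p = 3.66e-10) and 0.38 ± 0.13 for colon against ileum (adjusted p = 0.0149). The more distal region was higher in 14 of 15, 14 of 15 and 13 of 16 mice for these contrasts. In the sham ad libitum mice the mean of Hes1 was higher in the ileum than in the colon, and in the other 2 surgery groups it was higher in the colon.

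Hes6 (ENSMUSG00000067071, chr1:91411483-91414038, minus strand) was the steadiest of the transcription factors. It was at 27.2 to 49.6 CPM in duodenum, 27.3 to 47.5 in ileum and 26.6 to 49.4 in colon, with medians of 38.7, 36.4 and 41.9. The 95% intervals of its log2 fold changes were -0.19 to 0.15, -0.08 to 0.26 and -0.06 to 0.28 for ileum against duodenum, colon against duodenum and colon against ileum (edgeR, lowest adjusted p = 0.306), narrower than those of any other member.

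**Figure D2:**
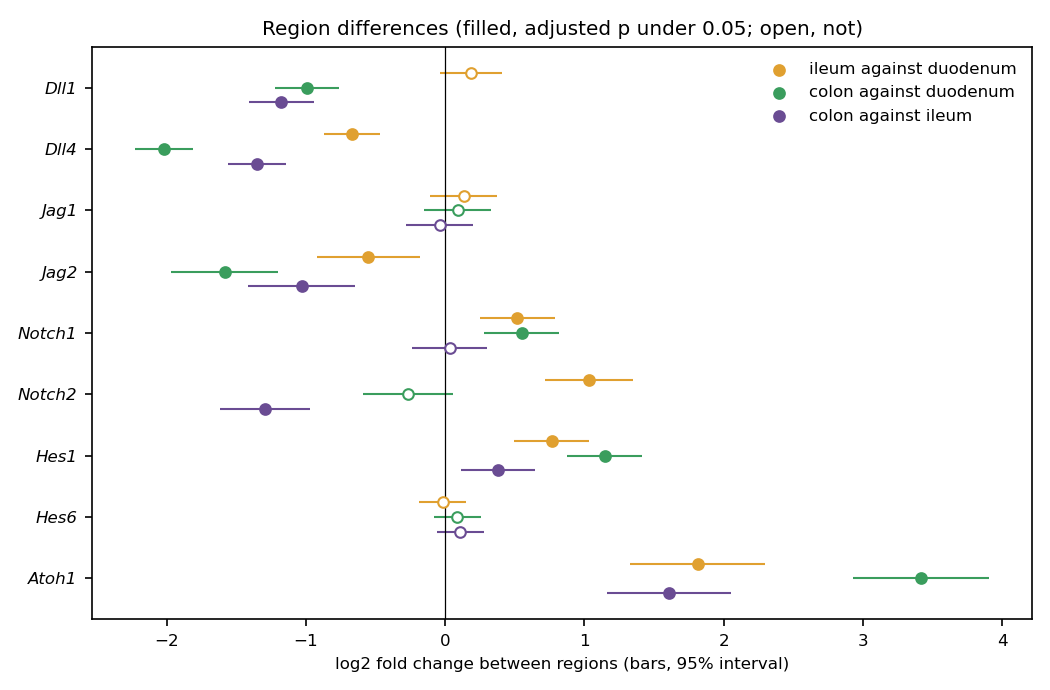
Log2 fold changes between regions for the 9 genes, averaged over the 3 surgery groups, with 95% intervals as bars; filled points have an adjusted p under 0.05 in the edgeR fit and open points do not. Dll1, Dll4 and Jag2 lie left of 0 in both colon contrasts, Hes1 and Atoh1 lie right of 0 in all 3, and the intervals of Jag1 and Hes6 include 0 throughout.

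The order of the members changed along the gut when CPM was divided by exon length in kb. In the duodenum Dll4 (21.9 ± 4.6 CPM per kb, SD, n = 16) and Hes6 (21.3 ± 3.2) stood together at the top, with a gap to Dll1 (8.18 ± 1.94) of 4.04 times the larger of the SDs of Hes6 and Dll1. In the colon Hes6 (22.5 ± 4.0), Atoh1 (18.4 ± 7.1) and Hes1 (14.5 ± 4.0) led, neighbours among them differing by less than 1 SD, and Dll4 was at 5.36 ± 1.15. In the ileum Hes6 (21.1 ± 3.2) was followed by Dll4 (13.7 ± 2.4), Hes1 (11.2 ± 3.1) and Dll1 (9.34 ± 1.88). Atoh1 was at 1.71 ± 0.97 CPM per kb in the duodenum, next to Notch2 (1.60 ± 0.49) at the bottom, and neither pair of neighbours from Jag1 down to Notch2 in that region differed by more than 1 SD. Region held 88.2% of the sum of squares of log2 CPM for Dll4, 82.4% for Atoh1 and 72.8% for Dll1, but 2.16% for Jag1 and 2.44% for Hes6.

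Other epithelial RNA moved along the gut with some of these genes, and its part in the region differences was not tested. Within a region, over 16 mice, the log2 level of each member was set against the log2 summed level of goblet, Paneth, crypt stem and enterocyte markers, 108 relations in all with p-values from 100000 permutations and Benjamini-Hochberg adjustment. 10 passed by Pearson's r, 6 by Spearman's rho and 5 by both. In the colon Atoh1 was higher in libraries with more goblet marker RNA (r = 0.74, permutation p = 0.00108, adjusted p = 0.0194; rho = 0.71, p = 0.00255, adjusted p = 0.0459; r = 0.67 without the 2 libraries farthest from the median).

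Notch2, Hes1 and Notch1 went with the summed level of the crypt stem markers (Lgr5, Olfm4, Ascl2, Smoc2 and Axin2) in the ileum. The markers were not tested singly. The largest part of the sum was Olfm4 in the ileum (median 1652 CPM) and Axin2 in the colon (median 61.1 CPM). For Notch2, r was 0.78 (permutation p = 0.00036, adjusted p = 0.00972) and rho 0.77 (p = 0.00076, adjusted p = 0.0274), and r was 0.79 without the 2 farthest libraries. For Hes1, r was 0.86 (permutation p = 2e-05, adjusted p = 0.00216), rho 0.81 (p = 0.00035, adjusted p = 0.0274) and r without the 2 farthest 0.83. For Notch1, r was 0.75 (permutation p = 0.0009, adjusted p = 0.0194), rho 0.73 (p = 0.00186, adjusted p = 0.0402) and r without the 2 farthest 0.60. Notch2 also followed these markers in the colon, where their sum was only 76.7 to 125 CPM (r = 0.79, permutation p = 0.00026, adjusted p = 0.00972; rho = 0.78, p = 0.00051, adjusted p = 0.0274; r = 0.75 without the 2 farthest). Hes1 was at its highest in the colon, where summed crypt stem markers were lowest. Jag2 ran against the crypt stem markers in the ileum (r = -0.72, permutation p = 0.00156, adjusted p = 0.0241), with a rho of -0.63 that did not pass (p = 0.0117, adjusted p = 0.158) and an r of -0.51 without the 2 farthest. In the duodenum it passed by rho (-0.73, permutation p = 0.00183, adjusted p = 0.0402) and not by r (-0.63, p = 0.00914, adjusted p = 0.0705; -0.68 without the 2 farthest), and in the colon r was 0.36 (permutation p = 0.169, adjusted p = 0.434; rho = 0.36, p = 0.169, adjusted p = 0.480). Jag1 in the ileum (r = 0.71, permutation p = 0.00259, adjusted p = 0.0350; rho = 0.56, p = 0.0271, adjusted p = 0.244) and Hes1 in the duodenum (r = 0.67, permutation p = 0.00443, adjusted p = 0.0478; rho = 0.61, p = 0.0135, adjusted p = 0.159) passed by r alone, with an r of 0.34 and 0.42 without the 2 farthest libraries. The relation of Dll4 to enterocyte markers in the duodenum (r = -0.87, permutation p = 0.00027, adjusted p = 0.00972, and rho = -0.61, p = 0.0147, adjusted p = 0.159) fell to r = -0.48 without the 2 farthest libraries, so its size depends on them. That of Hes6 to the same markers (r = -0.68, permutation p = 0.00324, adjusted p = 0.0389, and rho = -0.35, p = 0.183, adjusted p = 0.507) fell to r = 0.02 without them.

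**Figure D3:**
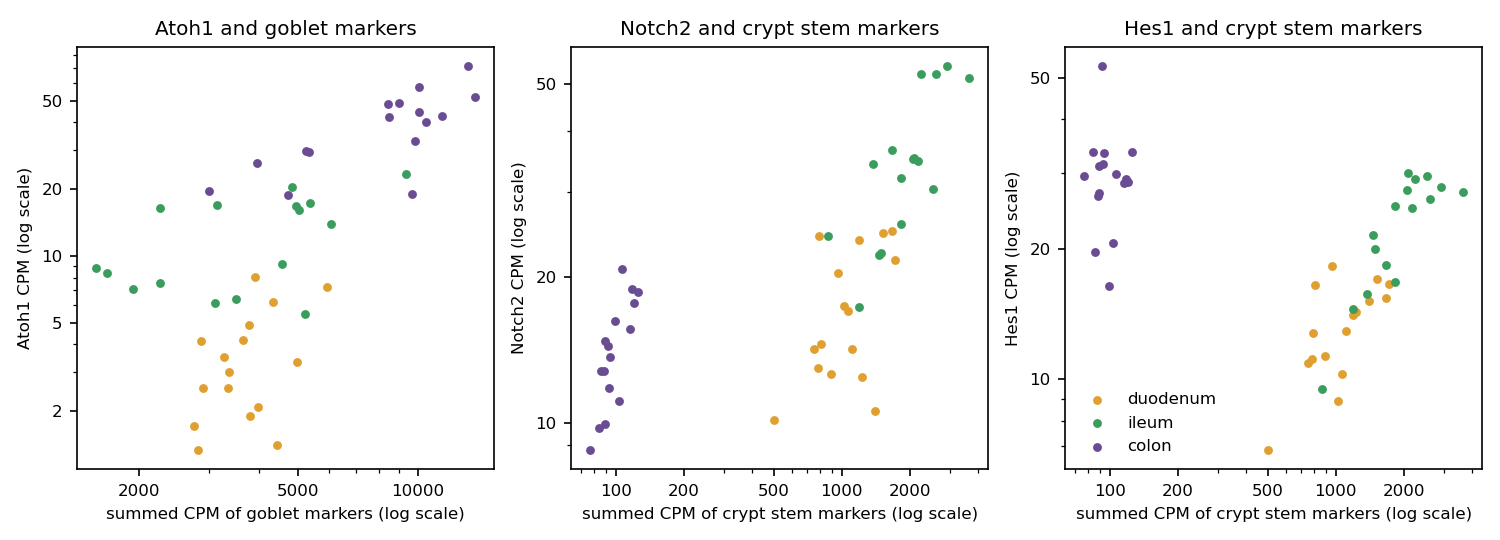
CPM of Atoh1 against the summed CPM of 6 goblet markers, and of Notch2 and Hes1 against that of 5 crypt stem markers, on log axes with a point for each library coloured by region. Atoh1 rises with goblet markers in the colon, and Notch2 rises with crypt stem markers in the ileum and colon. Hes1 rises with crypt stem markers in the ileum but is high in the colon, where their sum is low, mainly through Olfm4.

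Region and library index were not fully separate. 12 of 16 duodenum libraries carried index D502, which no other region used, and 11 of 16 colon libraries carried D504, which 1 ileum library shared. Index also followed surgery in the duodenum. Every VSG library there carried D502, and the libraries with D501 were all of sham mice. With the index as a covariate, 0 of 9 members were called between ileum and duodenum (2 at an unadjusted p under 0.05), while Dll1, Dll4, Notch2 and Atoh1 were called between colon and duodenum and Dll1, Dll4, Jag2, Notch2 and Atoh1 between colon and ileum. Of the 15126 tested genes that fit called 1713, 4236 and 5720 in these contrasts, and for ileum against duodenum it turned Jag2 from -0.55 to 0.067. Within index D501, with 7 ileum and 4 duodenum libraries, the difference in mean log2 CPM was 1.59 for Atoh1, 0.63 for Notch2, 0.31 for Hes1, 0.21 for Notch1, -0.43 for Dll4 and -0.11 for Jag2, against 1.68, 0.99, 0.73, 0.43, -0.66 and -0.55 over all libraries. Within D503, with 4 colon and 8 ileum libraries, it was -1.45 for Dll1, -1.37 for Dll4, -1.30 for Jag2, -1.56 for Notch2, 0.19 for Hes1 and 1.67 for Atoh1, against -1.16, -1.34, -1.01, -1.24, 0.38 and 1.63. The members called in either contrast kept their direction within the index, at smaller sizes between ileum and duodenum and, for Hes1, between colon and ileum. The D501 duodenum libraries included that of mouse 27, whose Dll4 and Jag2 were the lowest of the region. They were at 40.0 and 13.4 CPM there, against at least 68.1 and 25.9 CPM in the other duodenum libraries. The part of that library in the D501 differences was not tested. Only D501 held both colon and duodenum libraries, with 1 of the colon.

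The rest of the pathway was examined through 49 further genes, of which 41 passed the filter (Dll3, Dlk2, Aph1c, Dtx1, Hes5, Hes7, Hey2 and Heyl did not). Between ileum and duodenum 14 of 41 were called, 10 higher and 4 lower in the ileum, where 17.2% of all tested genes were called higher and 16.6% lower. The colon against duodenum contrast gave 10 higher and 10 lower, with 26.8% and 28.3% over all tested genes, and colon against ileum gave 8 higher and 11 lower, with 23.8% and 25.4%. The median log2 fold changes of the 41 genes were 0.04, 0.04 and 0.02.

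Among modifiers of the receptor, Lfng, a glycosyltransferase that makes Notch favour Delta over Jagged ligands, rose at each step toward the colon. Its mean log2 fold change was 0.69 for ileum against duodenum (edgeR, adjusted p = 2.96e-05), 1.69 for colon against duodenum (adjusted p = 3.55e-16) and 1.01 for colon against ileum (adjusted p = 2.46e-09). 2 of the 5 glycosylation genes were higher and 1 was lower in colon than in duodenum, where 55.0% of all tested genes were called. Mfng, another fringe enzyme, was lower in the ileum than in the duodenum (-0.88, adjusted p = 0.0258).

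Of the 4 genes for ligand endocytosis, which arms the ligand on the sending cell, Neurl1b was higher in colon than in duodenum (1.52, edgeR adjusted p = 2.39e-10) and than in the ileum (1.25, adjusted p = 3.85e-08). Neurl1a was higher in the ileum than in the duodenum (0.98, adjusted p = 3.75e-05). 9 tested genes of receptor cleavage gave 4 calls between colon and duodenum, 2 in each direction, a share below the 55.0% of all tested genes. Aph1b, a subunit of γ-secretase, was lower in the ileum than in the duodenum (-0.80, adjusted p = 0.00224).

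The nuclear complex held 10 genes, with 1 higher and 4 lower in colon than in duodenum, against 26.8% and 28.3% of all tested genes. Maml2, a co-activator of the Notch intracellular domain, was lower in colon than in duodenum (-1.69, edgeR adjusted p = 2.32e-08) and than in the ileum (-1.72, adjusted p = 2.21e-08). Co-repressors of the Tle family, which Hes proteins recruit, moved both ways between colon and duodenum. Tle1 was higher in the colon (0.76, adjusted p = 3.92e-10), Tle3 lower (-0.68, adjusted p = 2.03e-09) and Tle2 lower (-1.44, adjusted p = 3.47e-07). Against the ileum, Tle1 was 0.82 higher in the colon (adjusted p = 7.01e-11) and Tle3 was at -0.57 (adjusted p = 1.36e-07), and Tle2 was already lower in the ileum than in the duodenum (-0.80, adjusted p = 0.00325). Rbpj, looked up after the values were seen, was at 0.00, 0.27 and 0.27 in the 3 contrasts and was not called (lowest adjusted p = 0.0821).

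Among other targets, Nrarp, a Notch-induced feedback inhibitor, was higher in the ileum than in the duodenum (1.05, edgeR adjusted p = 8.16e-07). It was lower in colon than in ileum (-1.01, adjusted p = 8.13e-07, singled out after the values were seen), so its course was that of Notch2 and not that of Hes1. Gm38287 on the opposite strand shares 2051 of the 2582 exonic bases of Nrarp, so its reads cannot be told apart from those of that transcript if strand was not used. Of 8 tested inhibitors and turnover genes, 2 were lower in colon than in duodenum (28.3% of all tested genes) and none was higher (26.8%); Dtx4, a Deltex protein, was at -0.85 for colon against ileum (adjusted p = 1.09e-08). The receptors Notch3 and Notch4, also named after their values were seen, were higher in colon than in duodenum by 2.41 (adjusted p = 0.000125) and 1.38 (adjusted p = 7.96e-06) on the log2 scale.

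The 11 secretory fate factors all passed the filter. 6 were higher and 3 lower in ileum than in duodenum, 6 higher and 3 lower in colon than in duodenum, and 6 higher and 2 lower in colon than in ileum, with median log2 fold changes of 0.35, 0.41 and 0.56. Of all tested genes 17.2% were higher and 16.6% lower in the first contrast, 26.8% and 28.3% in the second and 23.8% and 25.4% in the last. Spdef, Gfi1, Creb3l1, Klf4, Sox9 and Foxa3 were the 6 higher in colon than in duodenum. Spdef, which drives goblet cell maturation, was higher by 0.92 in the ileum than in the duodenum (edgeR, adjusted p = 0.000188), by 3.36 in colon than in duodenum (adjusted p = 2.16e-20) and by 2.44 in colon than in ileum (adjusted p = 8.04e-16). Gfi1, a repressor downstream of Atoh1, was higher by 2.06 in the ileum (adjusted p = 0.000311) and by 3.80 in the colon (adjusted p = 3.45e-10) than in the duodenum. Creb3l1 was 1.72 higher in colon than in duodenum (adjusted p = 3.52e-21) and 1.37 higher in colon than in ileum (adjusted p = 1.96e-17), Foxa3 was 0.56 higher in colon than in ileum (adjusted p = 2.21e-05), and Sox9, a factor of crypt base and Paneth cells, was 1.03 higher in ileum than in duodenum (adjusted p = 2.36e-08). As given above, goblet marker RNA was highest in the colon, but the goblet genes differed in course. From duodenum to colon, medians were 23.9, 222 and 1412 CPM for Muc2, 82.2, 335 and 1671 for Clca1, and 77.1, 370 and 719 for Zg16. Fcgbp, the largest part of the sum, was at 3035, 2742 and 4386 CPM, Agr2 at 254, 165 and 289, and Tff3 at 191, 163 and 128. The part of goblet RNA was not tested.

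Neurog3, Neurod1 and Bhlha15 were the 3 fate factors lower in colon than in duodenum. Neurog3, the factor that commits a secretory progenitor to an endocrine fate, was at -1.502 in the ileum (edgeR, adjusted p = 0.00539) and at -2.27 in the colon (adjusted p = 2.71e-05), both against the duodenum. Neurod1, whose promoter drives the Cre recombinase that marks the sorted lineage, was at -0.70 (adjusted p = 0.000156), -1.35 (adjusted p = 4.91e-11) and -0.66 (adjusted p = 0.000157) for ileum against duodenum, colon against duodenum and colon against ileum. Bhlha15, a factor of secretory cell architecture, was at -1.35 for colon against duodenum (adjusted p = 8.25e-05) and -2.02 for colon against ileum (adjusted p = 6.98e-08). Sox4 was lower in the ileum than in the duodenum (-0.36, adjusted p = 0.0157), and Gm26735 on the opposite strand shares 2616 of its 4795 exonic bases. Insm1, another factor of the endocrine branch and named here after its values were seen, was not called in any of the 3 contrasts and was at 0.24 (adjusted p = 0.144) for colon against duodenum.

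**Figure D4:**
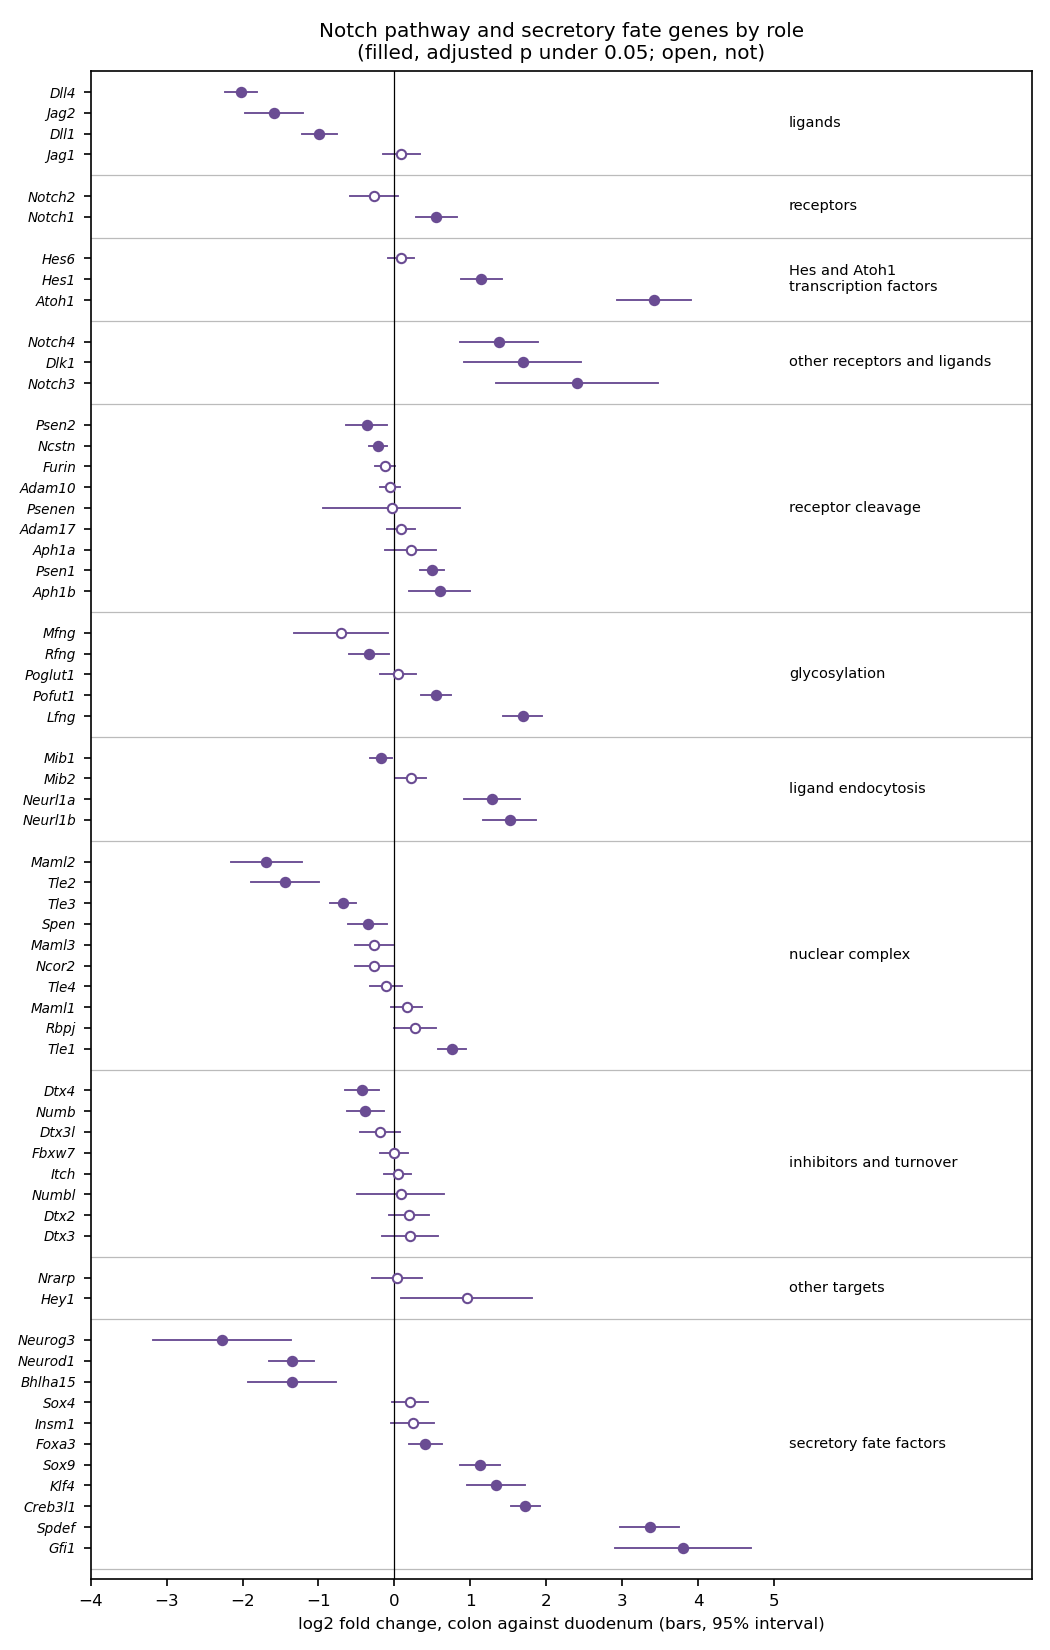
Log2 fold changes for colon against duodenum of the 9 members, the other tested Notch pathway genes and the secretory fate factors, a row for each gene grouped by role, with 95% intervals as bars; filled points have an adjusted p under 0.05 in the edgeR fit and open points do not. The ligands Dll4, Jag2 and Dll1 lie left of 0 and Atoh1, Hes1, Lfng, Spdef and Gfi1 right of it.

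Surgery was compared next, to ask whether these genes differed in EECs after VSG or after feeding to match its weight. 0 of 9 members were called in any of 12 surgery contrasts or in the test of a surgery by region interaction by edgeR, and DESeq2 also called 0 in each. VSG against sham ad libitum called 0% of all tested genes averaged over the regions and 0% in each region. VSG against sham weight-matched called 0.245% averaged over the regions, and by region 0.225% (duodenum), 0.0463% (ileum) and 0.0595% (colon). Sham weight-matched against sham ad libitum called 0.0529% averaged over the regions, 0% in duodenum, 0% in ileum and 0.0132% in colon, and the interaction called 0%. VSG mice were compared with both sham groups, so those contrasts share their VSG libraries, as the contrasts against sham ad libitum share theirs.

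Dll4 came nearest to a difference. In the duodenum its CPM was 113, 101, 80.0, 88.7, 83.1 and 117 in the VSG mice (11, 18, 22, 25, 28 and 30), 92.99, 80.5, 78.3, 89.8 and 68.1 in the sham ad libitum mice (12, 13, 17, 19 and 32), and 78.1, 82.9, 40.0, 71.9 and 86.1 in the sham weight-matched mice (16, 21, 27, 29 and 31). 3 VSG libraries lay above every sham library, and the other 3 lay among them. Averaged over the regions, the log2 fold change of VSG was 0.26 ± 0.10 against sham ad libitum (edgeR, unadjusted p = 0.0117, adjusted p = 0.708) and 0.22 ± 0.10 against sham weight-matched (unadjusted p = 0.0326, adjusted p = 0.446). In the duodenum VSG was 0.43 ± 0.17 above sham weight-matched (unadjusted p = 0.0133, adjusted p = 0.325), which became 0.28 ± 0.16 (adjusted p = 1) without the duodenum library of mouse 27, the lowest of the 16. In each region the mean of Dll4 was highest in the VSG group, by ratios to the lowest group of 1.35 in duodenum, 1.197 in ileum and 1.21 in colon.

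Averaged over the regions, the VSG against sham ad libitum log2 fold changes of the other ligands were 0.17 for Dll1 (95% interval -0.05 to 0.40), -0.02 for Jag1 (-0.26 to 0.21) and 0.08 for Jag2 (-0.29 to 0.46). The receptors were at -0.17 for Notch1 (-0.43 to 0.09) and 0.01 for Notch2 (-0.30 to 0.32). Hes1 was at -0.09 (-0.35 to 0.17), Hes6 at 0.07 (-0.09 to 0.24) and Atoh1 at 0.41 (-0.04 to 0.87), the widest interval of the 9. A change of 1 on the log2 scale in either direction lies outside each of these intervals.

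Against sham weight-matched mice the VSG log2 fold changes ran from -0.20 for Jag2 (95% interval -0.57 to 0.17) to 0.22 for Dll4, with 0.13 for Atoh1 (-0.32 to 0.58), 0.13 for Jag1, 0.12 for Notch1, 0.04 for Hes1, 0.03 for Notch2, 0.02 for Dll1 and 0.02 for Hes6. Sham weight-matched against sham ad libitum, groups that differed in feeding as well as weight, gave values from -0.29 for Notch1 (unadjusted p = 0.0398, edgeR adjusted p = 0.774) to 0.29 for Atoh1 (-0.19 to 0.76). The others were 0.28 for Jag2, 0.15 for Dll1, 0.06 for Hes6, 0.04 for Dll4, -0.02 for Notch2, -0.13 for Hes1 and -0.15 for Jag1. None reached an adjusted p under 0.05.

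Within single regions the log2 fold changes of the 9 genes in the 9 surgery contrasts lay between -0.61 and 0.71, and 5 of these 81 values had an unadjusted p under 0.05, as had 5.74% of the values of all tested genes in the same contrasts. Besides Dll4 in the duodenum they were Hes6 in the colon for VSG against sham weight-matched (-0.31 ± 0.14, edgeR adjusted p = 1), and 3 for sham weight-matched against sham ad libitum: Notch1 in the ileum (-0.61 ± 0.24, adjusted p = 0.547), Jag2 in the ileum (0.69 ± 0.33, adjusted p = 0.629) and Dll1 in the colon (0.43 ± 0.21, adjusted p = 1). In the ileum Notch1 was at 62.8, 123, 45.9, 32.7 and 77.2 CPM in sham ad libitum mice 12, 13, 19, 24 and 32, and at 41.9, 43.8, 46.8, 60.7 and 30.9 CPM in sham weight-matched mice 16, 21, 27, 29 and 31. The groups overlapped, and mouse 13 held the highest value, without which the difference was -0.29 ± 0.22 (adjusted p = 0.938). That library also had the most crypt stem marker RNA of the ileum, 3661 CPM against a median of 1941, and the part of such RNA in the Notch1 value was not tested.

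**Figure D5:**
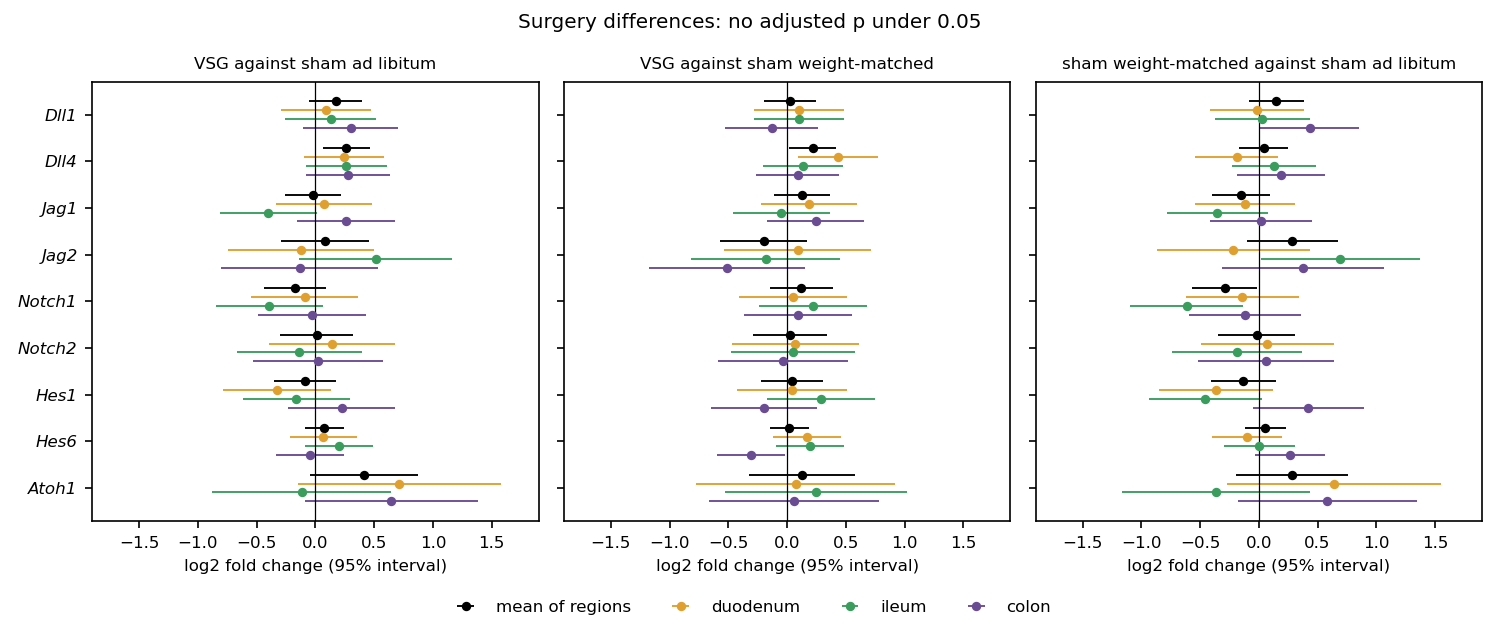
Log2 fold changes of the 9 genes in 3 surgery contrasts, averaged over the regions (black) and within each region (colours), with 95% intervals as bars. No value has an adjusted p under 0.05 in the edgeR fit; the averaged values lie between -0.29 and 0.41.

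The interaction test had its lowest unadjusted p for Hes1 (0.0810) and Hes6 (0.0934), each with an edgeR adjusted p of 1. Of the 41 other pathway genes and the 11 secretory fate factors, none was called in any surgery contrast or in the interaction. At an unadjusted p under 0.05 the pathway genes numbered 1 for VSG against sham ad libitum, 4 for VSG against sham weight-matched and 3 for sham weight-matched against sham ad libitum, averaged over the regions, and the fate factors 0, 0 and 0, where 5.53%, 9.92% and 6.39% of all tested genes passed.

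Across all 48 libraries the genes whose log2 CPM was most like that of a member differed by member, as a description over libraries that share regions, mice and composition. Dll4 was closest to Nrp1, Gpx3 and Gm11992 (r = 0.96, 0.95 and 0.95), Jag2 to Kcnb2, Peg3 and Scg3 (0.92, 0.90 and 0.90), and Dll1 to Soat2, Pklr and Slc7a9 (0.89, 0.88 and 0.87). Atoh1 was closest to Gsdmc2, the goblet mucin Muc2 and Endod1 (0.94, 0.93 and 0.93) and Hes1 to Steap3, Ybx3 and Cdo1 (0.90, 0.88 and 0.87). Notch2 was closest to Amot, the stem cell receptor Lgr5 and Myc (0.86, 0.85 and 0.82), and Notch1 to Sox9, Ephb4 and Lrig1 (0.81, 0.80 and 0.79). Jag1 (Msl3, Gpaa1 and 1700020I14Rik; 0.65, 0.61 and 0.58) and Hes6 (Apbb1, Anapc5 and Arl2; 0.62, 0.57 and 0.57) had no close partner.

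After the 9 group means were removed, the likeness of Notch1 to Ephb2 and Sox9 (r = 0.82 and 0.77, then Mlxip at 0.76) and of Jag2 to Kcnb2, Parvb and Man1c1 (0.83, 0.82 and 0.80) was the strongest left among the members. Hes1 was then nearest to Oat, Rpl4 and Idh3b (0.79, 0.77 and 0.74), Notch2 to Plch2, Etv6 and Pitrm1 (0.75, 0.73 and 0.72), and Dll4 to Alg2, Xxylt1 and Zfat (0.71, 0.71 and 0.71). Jag1 kept Msl3 and Gpaa1 (0.71 and 0.63, then Zfp143 at 0.56) and Dll1 had Cx3cl1, 2510039O18Rik and Pklr (0.68, 0.63 and 0.62). Atoh1, nearest to Fzd5, Inpp5a and Ugt2b36 (0.65, 0.64 and 0.63), no longer had Muc2 among its 3, and Hes6 had Tor3a, Cdh24 and Pea15a (0.61, 0.61 and 0.60). Between members, Dll4 and Jag2 had r = 0.80 over all libraries and 0.39 within groups, Notch1 and Notch2 had 0.61 within groups, and Jag2 and Hes1 had -0.62 within groups.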

How the data were processed

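EECs were sorted from the duodenum, ileum and colon of operated mice, and libraries were made with a strand-marking total RNA kit and read as single ends of 50 bases. The authors aligned reads to GRCm38 with STAR 2.5.1 and deposited raw counts per gene; the strand setting of the counting is not given in the sources used here. Groups followed the sample labels. Counts were filtered with filterByExpr, scaled by TMM and tested in edgeR 4.0.16 (robust glmQLFit, glmQLFTest; R 4.3.3) with a mean for each of the 9 groups of surgery and region, after the study's model of surgery and region. Standard errors follow from the F statistic, and 95% intervals from its degrees of freedom. Gene positions, overlaps and exon lengths came from GENCODE release M21, matched for 53274 of the 53465 genes. The fitting code was tested on simulated data. DESeq2 1.42.0, limma 3.58.1 and other settings served as alternatives. The members and gene lists were chosen with earlier results of these data known. The text names every member in region and averaged surgery contrasts, members with an unadjusted p under 0.05 in single-region surgery contrasts, up to 3 list genes per direction of lowest p per region contrast, and 3 most similar genes per member. Mouse numbers pair libraries of the same animal across regions: same-mouse pairs of libraries had a median correlation of 0.083 (-0.016 to 0.311 over 46 pairs) in deviations from group means. No sample column was left unmatched. Counting depth of Atoh1 in the duodenum (9 to 58 counts) was the lowest of the members.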

Additional observations from a re-analysis of the deposited data

Results flagged for a closer look

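4 of the 81 sets of a member, surgery group and region held a library far from the others of its group by Dixon's test, and chance alone flags about 1 in 20 such sets. In the ileum of sham ad libitum mice, Dll1 was at 50.2 CPM in mouse 19, next to 36.1 CPM in the nearest library, and Jag1 at 21.9 CPM in mouse 13, next to 17.01 CPM. Among duodenum libraries of the same surgery group, Notch1 was at 28.5 CPM in mouse 12, below 40.8 CPM in the nearest library. In the ileum of sham weight-matched mice, Hes1 was at 29.1 CPM in mouse 27, next to 18.4 CPM.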

How the results depend on the processing

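The number of called members was the same or within 1.5 times in 148 of 149 other settings of the 16 comparisons and in all 272 fits without a mouse. Most of these comparisons were surgery contrasts, which with the interaction had no called member to lose and could only show a gain. The exception among the 149 settings was ileum against duodenum with the library index as a covariate (0 in place of 6), where index and region overlap. That covariate also changed which members were called between colon and duodenum, where Jag2, Notch1 and Hes1 lost their calls and Notch2 gained one. Hes1 lost its call between colon and ileum as well. With the mouse as a replicate block, fixed in edgeR or random in limma voom, each region contrast called the same 6 members as the fit without it, and limma voom called 0 in each surgery contrast, so the pairing changed no call. Among single genes, the index covariate turned ileum against duodenum for Dll1 (-0.34), Jag1 (-0.14), Jag2 (0.067) and Hes6 (0.19), colon against duodenum for Jag1 (-0.083) and colon against ileum for Jag1 (0.057) and Notch1 (-0.11), of which Jag2 had been called. It also turned VSG against sham ad libitum for Jag2 (-0.013) and sham weight-matched against sham ad libitum for Dll4 (-0.034) and Notch2 (0.049), the cause of which was not tested. Among surgery values near 0, Notch2 for VSG against sham ad libitum was -0.019 without the ileum and colon libraries of mouse 12, -0.015 with the replicate block and -0.045 with counts summed per mouse. Counts summed per mouse gave -0.0019 for Notch2 and -0.036 for Hes1 in VSG against sham weight-matched and -0.099 for Dll4 and 0.025 for Hes1 in sham weight-matched against sham ad libitum, and the omission of the duodenum library of mouse 27, chosen after seeing the data, gave -0.013 for Hes6 in VSG against sham weight-matched. Leaving out each mouse in turn, values that changed sign ranged from -0.064 to 0.019 for Hes6 in ileum against duodenum, and in colon against ileum from -0.076 to 0.014 for Jag1 and -0.057 to 0.18 for Notch1. For VSG against sham ad libitum they ranged from -0.13 to 0.058 for Jag1, -0.088 to 0.16 for Jag2 and -0.046 to 0.12 for Notch2. For VSG against sham weight-matched the ranges were -0.038 to 0.15 for Dll1, -0.087 to 0.15 for Notch2, -0.035 to 0.23 for Hes1, -0.0064 to 0.051 for Hes6 and -0.038 to 0.38 for Atoh1, and for sham weight-matched against sham ad libitum -0.0090 to 0.080 for Dll4 and -0.14 to 0.097 for Notch2. Atoh1 in the duodenum rests on the fewest counts.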
